A study of Mus musculus with 6 samples.

Results

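The 10 genes described here encode proteins of vascular smooth muscle cells and pericytes, the mural cells that wrap arteries and capillaries: Myh11, Acta2, Tagln, Cnn1, Smtn, Lmod1 and Mylk for the contractile apparatus, and Rgs5, Pdgfrb and Notch3 for receptors and signalling. They were matched by gene symbol to the deposited expression table, which held all 10 among its 21705 genes. Each passed the filter of a mean value of at least 10 over the hearts, which left 13581 genes for testing. Messenger RNA was measured in whole hearts from females of the FVB strain, wild type and 12 to 16 weeks old. The 3 trametinib hearts came from mice that received 3 mg/kg of trametinib, a drug that blocks MEK1 and MEK2 upstream of ERK, daily over 14 days. The 3 vehicle hearts came from mice given vehicle on the same daily schedule, under a column heading that names it PBS. All hearts were of the same genotype, with no transgene or deletion named in the labels, and each library was labelled as a separate female. Values are normalized read counts per gene, which the authors had scaled to a similar upper quartile in each library. A library summed to 21656431 to 22330993. The smallest step between low values put the estimated depth at 23033856 to 24691501 reads in trametinib and 14304826 to 16046500 in vehicle libraries, so trametinib values rest on more reads.

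Smooth muscle cells contract when calcium and calmodulin activate the myosin light chain kinase encoded by Mylk, which phosphorylates myosin and lets the Myh11 heavy chain pull on actin filaments built from Acta2. Contractile genes of this kind are switched on by serum response factor, SRF, with its partner myocardin, at a DNA element called the CArG box. Growth factors that act through ERK, among them platelet-derived growth factor in cultured smooth muscle cells, are known to lower these genes, because ERK-phosphorylated ETS proteins compete with myocardin for SRF. Pericytes are recruited to vessels by endothelial PDGF-B acting on Pdgfrb, and Notch3 receives Jagged signals from endothelium in arterial smooth muscle and pericytes. Several of these genes are not confined to mural cells: Acta2 and Tagln are also made by myofibroblasts. In whole-heart RNA, a change in the number of mural cells, in RNA per mural cell or in RNA from other cells cannot be told apart. The part of other cell types in the members' values was not tested.

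Promoter windows were searched as a description, since the contractile genes among the members share a known regulator. Whether the motifs relate to the changes below was not tested. The RefSeq table of GRCm38.p6 held a window, from 250 bases before to 50 after a transcript start, for 7 of the 10 genes. Myh11, Tagln and Pdgfrb were not searched, nor was any sequence outside the windows, so elements further away would be missed. A CArG box with only A and T at its 6 central positions was found in 0 of the 7 searched and in 1.63% of all 32851 windows. With 1 central G or C allowed (called CArG-like here), Acta2 held 2 matches, starting 84 and 34 bases before the start, and 9.98% of all windows held at least 1. The ETS core CCGGAA, searched on both strands, was in the windows of Smtn and Mylk and in 14.9% of all windows. A match is a description of the letters and not evidence of binding. Shown 5′ to 3′ on the gene's strand are Acta2 (chr19:34255324-34255623, minus strand) and its skeletal relative Acta1 (chr8:123894726-123895025, minus strand), an actin that fell in these hearts, with CArG-like matches in capitals, and Smtn (chr11:3539243-3539542, minus strand) and Mylk (chr16:34784700-34784999, plus strand), 2 contractile genes with opposite changes, with CCGGAA or its reverse complement in capitals.
Acta2: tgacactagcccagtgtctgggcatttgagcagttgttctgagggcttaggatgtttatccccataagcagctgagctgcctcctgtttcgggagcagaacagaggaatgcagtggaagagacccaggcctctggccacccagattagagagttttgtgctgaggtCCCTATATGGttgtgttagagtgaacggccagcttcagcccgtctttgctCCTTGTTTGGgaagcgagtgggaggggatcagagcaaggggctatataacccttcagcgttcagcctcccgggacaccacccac
Acta1: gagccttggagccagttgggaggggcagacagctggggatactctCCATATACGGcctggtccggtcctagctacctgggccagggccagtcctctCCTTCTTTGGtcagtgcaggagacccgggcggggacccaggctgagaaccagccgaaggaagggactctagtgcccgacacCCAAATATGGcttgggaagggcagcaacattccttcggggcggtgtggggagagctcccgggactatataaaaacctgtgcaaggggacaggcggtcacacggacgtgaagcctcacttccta
Smtn: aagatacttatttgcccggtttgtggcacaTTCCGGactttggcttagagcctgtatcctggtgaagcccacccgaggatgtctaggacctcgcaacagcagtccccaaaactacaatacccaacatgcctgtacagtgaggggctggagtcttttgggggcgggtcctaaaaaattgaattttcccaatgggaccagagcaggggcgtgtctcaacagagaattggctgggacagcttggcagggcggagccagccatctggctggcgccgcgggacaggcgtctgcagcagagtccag
Mylk: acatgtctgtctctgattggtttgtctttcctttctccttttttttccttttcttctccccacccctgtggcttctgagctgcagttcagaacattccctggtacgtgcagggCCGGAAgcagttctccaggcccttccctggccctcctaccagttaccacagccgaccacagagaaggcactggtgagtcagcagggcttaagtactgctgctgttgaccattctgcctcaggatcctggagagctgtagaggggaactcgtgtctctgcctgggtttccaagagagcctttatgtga
The Acta1 window held 3 CArG-like matches, of which the match starting 73 bases before the start was a CArG box with no central G or C. CArG boxes also lay in the windows of Actc1, starting 47 bases before the start, and of Srf, starting 82 and 62 bases before. Actc1 was called lower and Srf higher in trametinib hearts. The Smtn and Mylk matches, 1 each, started 220 and 137 bases before the start.

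The members did not move as 1 group. Myh11, Mylk, Rgs5 and Notch3 were higher in trametinib hearts, Smtn was lower, and Acta2, Tagln, Cnn1, Lmod1 and Pdgfrb did not pass the test. The test was limma on log2(value + 1) over all 13581 genes, with Benjamini-Hochberg adjustment and a threshold of 0.05. Thus 4 of 10 members were higher, where 21.6% of all tested genes were, and 1 of 10 lower, where 22.8% were. In either direction that made 5 of 10 members, beside 44.5% of all tested genes. Leaving out vehicle replicate 1 made 3 members lower (Smtn, Tagln and Cnn1), and leaving out vehicle replicate 2 made 2 lower (Smtn and Pdgfrb). The median log2 fold change of the members was 0.02, and that of all tested genes -0.01. The same 4 genes had every trametinib heart above every vehicle heart and the same 1 gene had every trametinib heart below, against 27.0% and 29.5% of all tested genes (5 of 10 members without overlap in either direction, 56.5% of all tested genes).

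**Figure D1:**
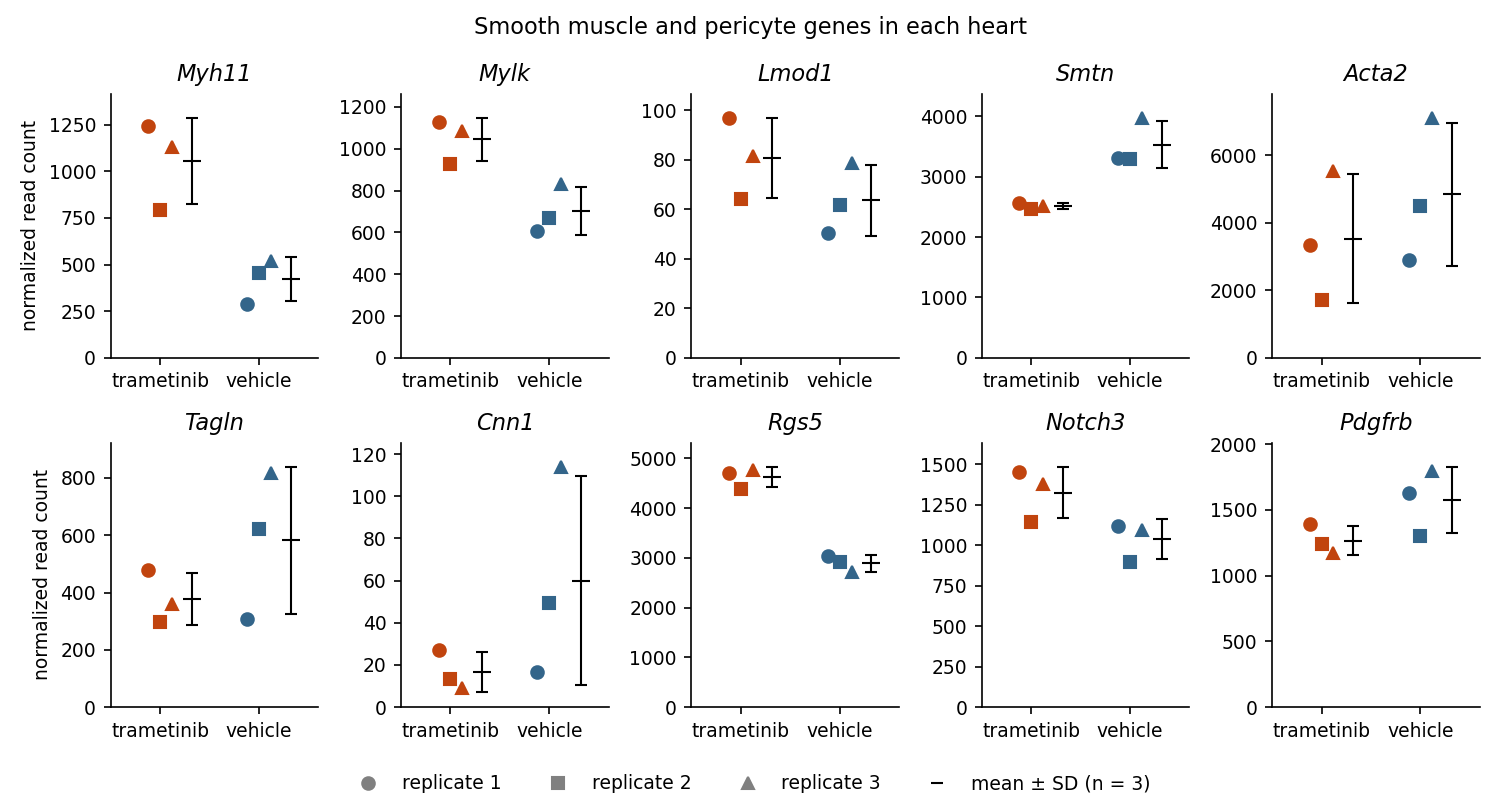
Normalized read counts of the 10 genes in each heart, with an axis from 0 in each panel. Points are hearts (circle, square and triangle for replicates 1, 2 and 3), and black bars are the mean ± SD of 3 hearts. The trametinib points lie wholly above the vehicle points for Myh11, Mylk, Rgs5 and Notch3 and wholly below for Smtn.

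The motor and its activating kinase rose together. Myh11, the smooth muscle myosin heavy chain, measured 1243, 795 and 1129 normalized read counts in trametinib hearts, against 289, 456 and 521 in vehicle hearts. The arms were well apart, with the lowest trametinib heart, replicate 2, above the highest vehicle heart, replicate 3. The means were 1056 ± 233 and 422 ± 120 (SD, n = 3 each), a 2.53-fold difference on the log2(value + 1) scale (log2 fold change 1.34 ± 0.24, SE; adjusted p = 0.0038). Myh11 had the largest rise among the members. Its call held without any 1 heart, with log2 fold changes from 1.09 to 1.53.

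Mylk, the light chain kinase, measured 1126, 929 and 1083 in trametinib hearts, against 608, 667 and 832 in vehicle hearts. Trametinib replicate 2 was again the lowest of its arm and vehicle replicate 3 the highest of its own, with no overlap. The log2 fold change was 0.58 ± 0.13 (SE; adjusted p = 0.00914). The gene-level value sums the transcripts of the locus, which include those of telokin, a short protein without kinase activity. A correction for transcript length and GC content, described with the length classes, ended the Mylk call at 0.35 (adjusted p = 0.064). The same correction with lengths over all annotated transcripts, added after seeing the data, kept it at 0.49 (adjusted p = 0.0202), and testing with no filter on low values ended it (adjusted p = 0.0552).

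Smtn, which encodes the actin-associated smoothelin, measured 2568, 2467 and 2510 in trametinib hearts, against 3309, 3293 and 3977 in vehicle hearts. It was the only member called lower, and the trametinib hearts lay close together, with a coefficient of variation of 2.0% against 11.1% in vehicle hearts. Its log2 fold change was -0.48 ± 0.08 (SE; adjusted p = 0.00272), and the call held without any 1 heart.

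Acta2, smooth muscle alpha actin, measured 3335, 1721 and 5521 in trametinib hearts, against 2904, 4502 and 7113 in vehicle hearts. Hearts within an arm differed more than the arms did, up to 3.21-fold in trametinib and 2.45-fold in vehicle hearts, and the arms overlapped. The log2 fold change was -0.52 ± 0.45 (SE; adjusted p = 0.387). Without trametinib replicate 2 it was -0.08, and without trametinib replicate 3 it was -0.92. Without vehicle replicate 3 it was -0.19, and without vehicle replicate 1 it was -0.84, so single hearts of either arm moved its size.

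Tagln, the actin-binding transgelin or SM22 alpha, measured 477, 298 and 361 in trametinib hearts, against 309, 621 and 818 in vehicle hearts. Cnn1, the calponin that restrains actomyosin, measured 27.3, 13.4 and 9.0 in trametinib hearts, against 16.8, 49.3 and 114 in vehicle hearts. In both genes vehicle replicate 1 was the low heart of its arm and fell inside the trametinib range, so the arms overlapped. The log2 fold changes were -0.54 ± 0.35 for Tagln (SE; adjusted p = 0.245) and -1.55 ± 0.69 for Cnn1 (SE; adjusted p = 0.108). Without vehicle replicate 1 both were called lower, Tagln at -0.94 (adjusted p = 0.0145) and Cnn1 at -2.25 (adjusted p = 0.0185). Without vehicle replicate 3 the differences shrank to -0.24 for Tagln (adjusted p = 0.592) and -0.91 for Cnn1 (adjusted p = 0.293). The Cnn1 values rest on few reads, an estimated 29, 15 and 10 in trametinib libraries and 11, 32 and 84 in vehicle libraries.

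Lmod1, a leiomodin that nucleates actin filaments in smooth muscle, measured 96.8, 64.2 and 81.4 in trametinib hearts, against 50.5, 61.6 and 78.7 in vehicle hearts. The arms overlapped, and trametinib replicate 2 lay below vehicle replicate 3. Its log2 fold change was 0.34 ± 0.23 (SE; adjusted p = 0.267).

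Of the genes of pericytes, Rgs5 gave the tightest result of the 10. Rgs5 encodes a regulator that speeds GTP hydrolysis by G protein alpha subunits and is abundant in pericytes. It measured 4712, 4388 and 4772 in trametinib hearts, against 3041, 2923 and 2711 in vehicle hearts. Each arm spanned a narrow range, with coefficients of variation of 4.5% and 5.8%, and the gap between arms was wide. The log2 fold change was 0.68 ± 0.06 (SE; adjusted p = 0.000357), and it held under each of the 17 alternatives tried, from 0.50 to 0.71.

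Notch3 measured 1453, 1146 and 1375 in trametinib hearts, against 1121, 898 and 1095 in vehicle hearts. The arms did not overlap, but trametinib replicate 2 lay only just above vehicle replicate 1. The log2 fold change was 0.35 ± 0.12 (SE; adjusted p = 0.0462). That call was lost under 9 of 17 alternatives, among them leaving out trametinib replicate 1 (adjusted p = 0.145), trametinib replicate 3 (adjusted p = 0.124), vehicle replicate 2 (adjusted p = 0.119) or vehicle replicate 3 (adjusted p = 0.0653).

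Pdgfrb, the PDGF-B receptor, measured 1392, 1240 and 1170 in trametinib hearts, against 1628, 1300 and 1799 in vehicle hearts. Vehicle replicate 2 lay inside the trametinib range, and the other vehicle hearts lay above it. The log2 fold change was -0.31 ± 0.13 (SE; adjusted p = 0.0863). Without vehicle replicate 2 it was called lower at -0.44 (adjusted p = 0.0138), and without vehicle replicate 3 it stood at -0.20 (adjusted p = 0.23).

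Transcript length moved with the fold change across all genes, and the members differ widely in length. Tested genes were put in 5 length classes of near-equal number. In the shortest class, up to 1313 nt, 4.67% were higher and 56.1% lower, and the class median log2 fold change was -0.42. In the longest class, starting at 3795 nt, 46.7% were higher and 5.34% lower, and the median was 0.31. Myh11 (6404 nt), Pdgfrb (5415 nt), Mylk (4722 nt), Notch3 (4366 nt) and Lmod1 (3948 nt) fall in the longest class, and Tagln (982 nt) and Cnn1 (1211 nt) in the shortest. Rgs5 (2410 nt) and Smtn (2296 nt) fall in the middle class, where the median was near 0, at -0.01, with 17.9% higher and 15.4% lower. Acta2 (1430 nt) is in the class between the shortest and the middle, whose median was -0.15.

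**Figure D2:**
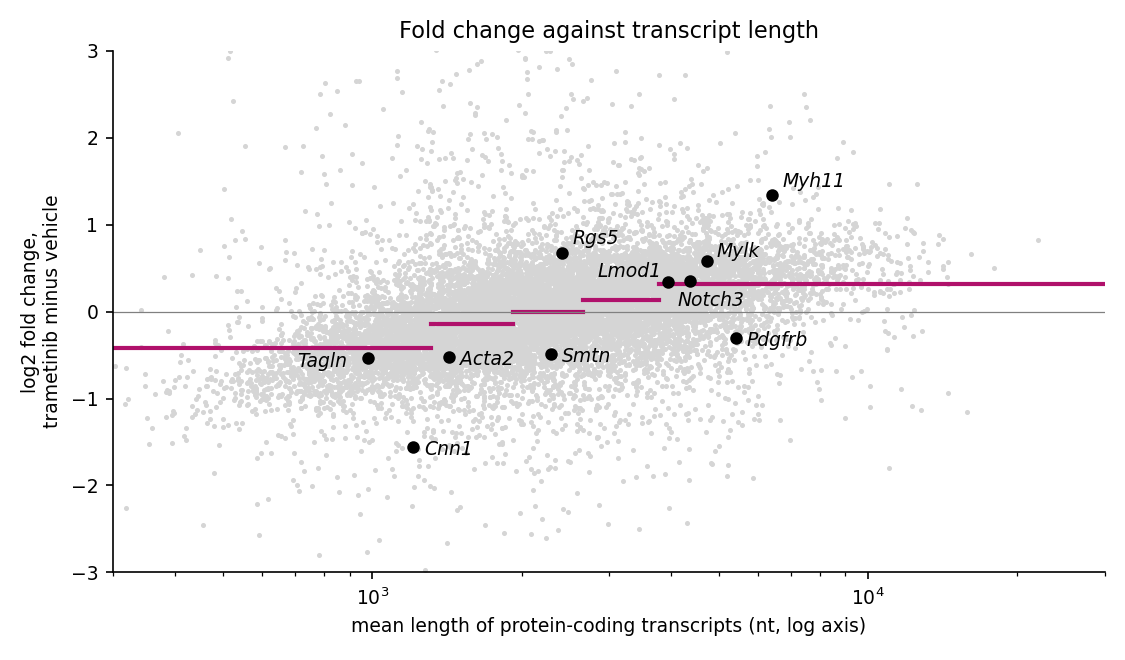
Log2 fold change, trametinib minus vehicle, against the mean length of a gene's protein-coding transcripts in nt on a log axis, for 13478 tested genes with a length. Grey points are genes, black points the 10 members and bars the median of each of 5 length classes, from -0.42 in the shortest to 0.31 in the longest. The 98 genes outside the axes are not drawn.

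Set beside genes of like length, the members sorted differently. Lmod1 and Notch3, at 0.34 and 0.35, lay close to the median of their class. Pdgfrb lay on the other side of 0 from the median of its class. Subtracting a length and then a GC trend in each library left Myh11 at 1.02 (adjusted p = 0.0169), Rgs5 at 0.58 (adjusted p = 0.00108) and Smtn at -0.46 (adjusted p = 0.00336). Notch3 then stood at 0.17 (adjusted p = 0.216) and no longer passed, and Pdgfrb stood at -0.57 and was called lower (adjusted p = 0.0114). Tagln stood at -0.21 (adjusted p = 0.67), Cnn1 at -1.31 (adjusted p = 0.183) and Acta2 at -0.38 (adjusted p = 0.555). The correction cannot tell a measurement effect of length from a change of the cells that follows length.

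**Figure D3:**
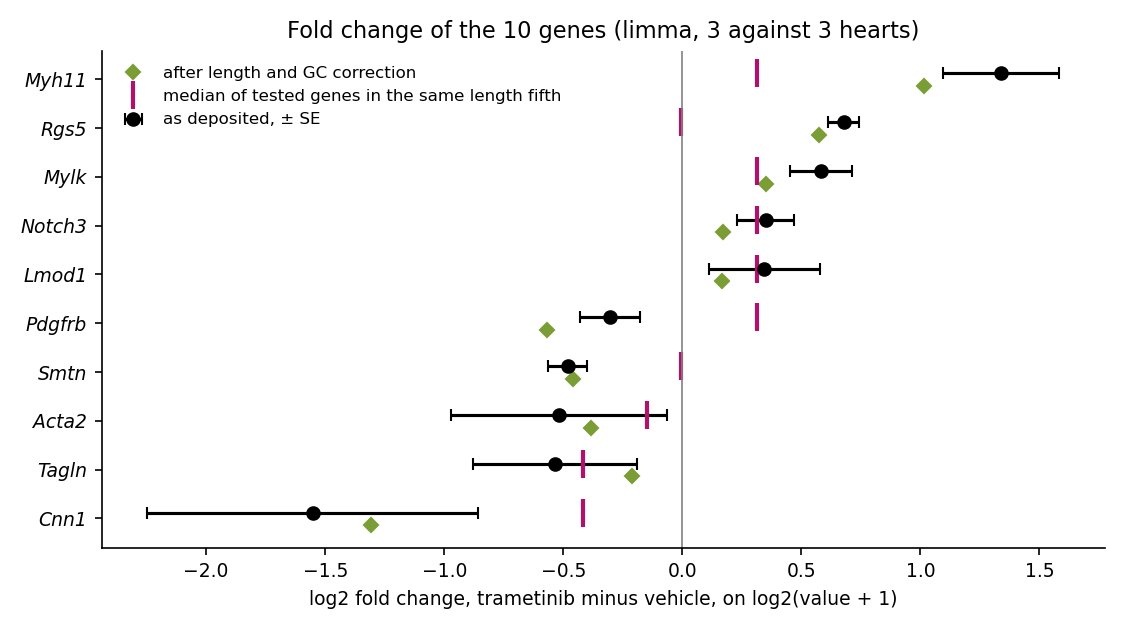
Log2 fold changes of the 10 genes, trametinib minus vehicle, as deposited with SE (black circles) and after the length and GC correction (green diamonds). Vertical marks give the median of tested genes in the same length class. Myh11 and Rgs5 stay well to the right of that mark. As deposited, Mylk also lies to its right, and Pdgfrb, Smtn, Cnn1, Acta2 and Tagln lie to its left.

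Unequal changes within a heart were compared as ratios of 2 genes, pairs that were chosen after their values were seen and are given as a description. The ratio of Rgs5 to Pdgfrb was 3.39, 3.54 and 4.08 in trametinib hearts, against 1.87, 2.25 and 1.51 in vehicle hearts. The ratio of Myh11 to Acta2 was 0.373, 0.462 and 0.204 in trametinib hearts, against 0.1, 0.101 and 0.073 in vehicle hearts. The arms did not overlap in either ratio, although trametinib replicate 3 had the lowest Myh11 to Acta2 ratio of its arm. The ratio of Myh11 to Smtn was 0.484, 0.322 and 0.45 in trametinib hearts, against 0.087, 0.139 and 0.131 in vehicle hearts. The ratio of Acta2 to Tagln, both thin filament genes, was 6.99, 5.77 and 15.29 in trametinib hearts, against 9.4, 7.25 and 8.69 in vehicle hearts, so the arms overlapped there.

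**Figure D4:**
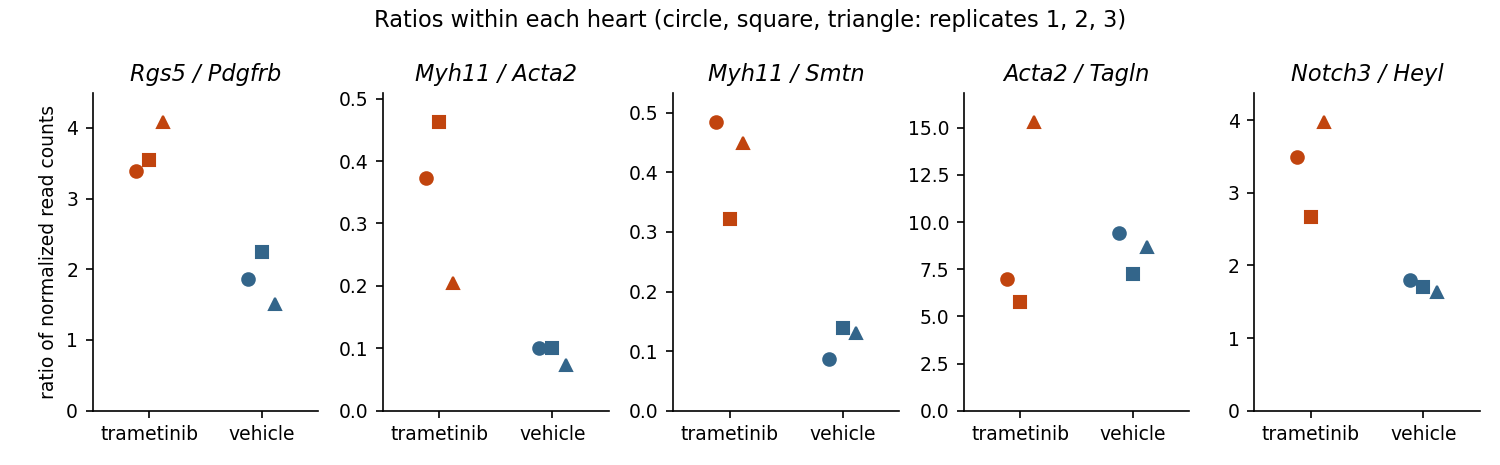
Ratios of normalized read counts of 2 genes within each heart, with an axis from 0 in each panel and symbols for replicates 1, 2 and 3. The trametinib points lie above the vehicle points for Rgs5 to Pdgfrb, Myh11 to Acta2, Myh11 to Smtn and Notch3 to Heyl, and overlap them for Acta2 to Tagln.

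Per kilobase of transcript, the order of the members' levels differed a little between arms. In trametinib hearts the mean level per kilobase was 2466 for Acta2, 1919 for Rgs5, 1095 for Smtn, 386 for Tagln, 303 for Notch3, 234 for Pdgfrb, 222 for Mylk, 165 for Myh11, 20.5 for Lmod1 and 13.7 for Cnn1. In vehicle hearts it was 3384 for Acta2, 1536 for Smtn, 1200 for Rgs5, 593 for Tagln, 291 for Pdgfrb, 238 for Notch3, 149 for Mylk, 65.9 for Myh11, 49.6 for Cnn1 and 16.1 for Lmod1. Rgs5 stood above Smtn in trametinib hearts and below it in vehicle hearts, in each case without overlap between hearts. In trametinib hearts the ranges overlapped for the neighbours Acta2 and Rgs5, Tagln and Notch3, Pdgfrb and Mylk, and Lmod1 and Cnn1. In vehicle hearts they overlapped for Tagln and Pdgfrb, Pdgfrb and Notch3, Myh11 and Cnn1, and Cnn1 and Lmod1.

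Hearts within an arm also differed in a shared way. Vehicle replicate 3 was the highest of its arm for 8 of the 10 genes, the exceptions being Rgs5 and Notch3, and vehicle replicate 1 the lowest for Myh11, Acta2, Tagln, Cnn1, Lmod1 and Mylk. Trametinib replicate 2 was the lowest of its arm for all but Cnn1 and Pdgfrb. Cnn1 varied most between vehicle hearts, with 6.78-fold between the highest and the lowest, and Rgs5 least, with 1.12-fold.

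Reads of a member could also be credited to another gene. Of all 75-base windows in the protein-coding transcripts of each member, the read length of the run, none was shared with another gene's transcripts in GENCODE M21 for Myh11, Acta2, Cnn1, Rgs5, Pdgfrb and Lmod1. Acta2 thus had no full-length window in common with Acta1, Actc1 or the other actins. For Tagln, 40.3% of windows lay in transcripts of genes on the opposite strand, Gm48529 and Pcsk7. Pcsk7, a protein convertase, measured 517, 472 and 577 in trametinib hearts, against 505, 549 and 539 in vehicle hearts (adjusted p = 0.822). The library kit keeps the strand, but whether counting used it is not given in the sources used here, so the Tagln value may hold reads of its neighbour. Shared windows, also on the opposite strand, made up 7.24% for Smtn, 4.25% for Notch3 and 3.19% for Mylk.

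Relatives of the members in the same gene families gave a point of comparison. Of 21 tested relatives, 4 were higher, 5 lower and 12 did not pass. Over all tested genes 21.6% were higher and 22.8% lower, shares to set beside the counts of this list and those below. The non-muscle myosin heavy chains Myh9 (0.84 ± 0.13, SE; adjusted p = 0.00176) and Myh10 (0.67 ± 0.10, SE; adjusted p = 0.00181) were higher, like Myh11, while the other non-muscle chain, Myh14, did not pass (0.18 ± 0.07, SE; adjusted p = 0.0622). Among actins, the skeletal Acta1 measured 1170, 529 and 1972 in trametinib hearts, against 6713, 5284 and 8225 in vehicle hearts. Acta1 fell by 2.63 on the log2 scale, with no overlap between arms, and cardiac Actc1 had -0.55 ± 0.09 (SE; adjusted p = 0.00289). With length and GC corrected, Actc1 stood at -0.15 and lost its call (adjusted p = 0.327). The cytoplasmic actins Actb and Actg1 did not pass, at 0.21 and 0.11, although Actb was called higher with length and GC corrected (0.54, adjusted p = 0.0102), and the enteric smooth muscle actin Actg2 was under the filter.

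The relatives of Lmod1 and Smtn that striated muscle expresses were lower. Lmod2 had a log2 fold change of -0.66 ± 0.15 (SE; adjusted p = 0.0113) and Lmod3 of -0.27 ± 0.09 (SE; adjusted p = 0.035), which held in only 1 of 6 fits with 1 heart left out. Smtnl2, a smoothelin-like gene, had -0.49 ± 0.10 (SE; adjusted p = 0.00715). The other calponins, Cnn2 at 0.17 and Cnn3 at 0.13, and the transgelin Tagln2 at -0.28, did not pass. Neither did the cardiac light chain kinase Mylk3, at -0.04, or its relative Mylk4, at -0.12, which was called lower with length and GC corrected (-0.32, adjusted p = 0.0419).

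Other smooth muscle contractile and cytoskeletal genes, taken from a list of 28, also went both ways. Of 27 tested, 11 were higher and 5 lower, beside 21.6% and 22.8% of all tested genes, and 11 were not called. The list's median was 0.13. With length and GC corrected, 6 were higher and 3 lower. The 3 with the smallest p were higher: Nexn, an actin-binding protein also of heart muscle (0.55 ± 0.07, SE), and Ppp1r12a (0.48 ± 0.06, SE) and Ppp1r12b (0.64 ± 0.08, SE), the targeting subunits of myosin phosphatase, which reverses the action of Mylk. Myl9, the regulatory light chain that Mylk phosphorylates, measured 743, 410 and 512 in trametinib hearts, against 352, 602 and 720 in vehicle hearts, with overlapping arms (adjusted p = 0.982; named after its values were seen). Heart muscle cells express many of these genes too, Nexn, Tpm1, Pln and Des among them.

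Genes that set the phosphorylation of myosin light chain went both ways. Of 22 tested, 7 were higher and 7 lower, beside 21.6% and 22.8% of all tested genes, and the median was -0.03. Those higher included the RhoA activator Arhgef12 (0.74 ± 0.07, SE; adjusted p = 0.000365) and the RhoA-dependent kinases Rock1 (0.52 ± 0.06, SE) and Rock2 (0.69 ± 0.08, SE). Those lower included the light chains Myl12b (-0.77 ± 0.06, SE; adjusted p = 0.000269) and Myl12a (-0.99 ± 0.10, SE; adjusted p = 0.000419). The 2 Rock genes, which were named after their values were seen, Arhgef12 and the light chains kept their calls with length and GC corrected, with Arhgef12 at 0.23 and Myl12a at -0.65.

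Other pericyte and mural markers went both ways. Of 25 tested, 5 were higher and 10 lower, beside 21.6% and 22.8% of all tested genes, and 10 were not called. The list's median was -0.10. With length and GC corrected, 3 were higher and 6 lower. Art3, an ADP-ribosyltransferase family member, measured 3670, 3961 and 3986 in trametinib hearts, against 6916, 8060 and 7062 in vehicle hearts (-0.92 ± 0.07, SE; adjusted p = 0.000269). The arms were far apart, with every trametinib heart below every vehicle heart. Ednra, an endothelin receptor of smooth muscle, was higher (0.58 ± 0.08, SE; adjusted p = 0.00134), as was the metalloreductase Steap4, named after its values were seen (1.11 ± 0.18, SE; adjusted p = 0.00243). The part of other heart cells in the values of this list was not tested.

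Abcc9, Kcnj8 and Cspg4, defining pericyte genes already counted in that list, gave a different result each. Abcc9, the sulphonylurea receptor of vascular and cardiac potassium channels, was higher (0.32 ± 0.06, SE; adjusted p = 0.00619), but with length and GC corrected it stood at -0.03 (adjusted p = 0.706). Its channel partner Kcnj8 was lower (-0.57 ± 0.17, SE; adjusted p = 0.0293), but lost its call in 3 of 6 fits with 1 heart left out. Cspg4, the NG2 proteoglycan, measured 451, 327 and 439 in trametinib hearts, against 476, 345 and 483 in vehicle hearts, and did not pass (adjusted p = 0.678).

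Partners of Pdgfrb and Notch3 were measured too. Pdgfb, the ligand that endothelium supplies to Pdgfrb, measured 1375, 1452 and 1246 in trametinib hearts, against 723, 504 and 881 in vehicle hearts. It was higher without overlap (0.98 ± 0.19, SE; adjusted p = 0.00462) and stood at 1.21 after the correction, while its receptor did not rise. Of the 5 PDGF ligands and alpha receptor genes, 2 were higher and none lower. The alpha receptor Pdgfra, a fibroblast gene, had 0.26 ± 0.09 (SE; adjusted p = 0.0477), lost in 5 of 6 fits with 1 heart left out and under the correction (0.13, adjusted p = 0.302). Pdgfa, at 0.25 ± 0.14 (SE; adjusted p = 0.2), did not pass.

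In the Notch pathway 6 of 23 genes were called higher and 4 lower, beside 21.6% and 22.8% of all tested genes. The median was 0.23. With length and GC corrected, 1 was higher, Adam10, and 2 were lower, Heyl and Lfng, a glycosyltransferase that modifies Notch receptors. Heyl, a repressor that Notch signals induce, measured 417, 429 and 346 in trametinib hearts, against 622, 527 and 666 in vehicle hearts. It fell (-0.61 ± 0.12, SE; adjusted p = 0.0059), opposite in sign to Notch3, whose call was lost under 9 of 17 alternatives. The Notch3 to Heyl ratio was 3.49, 2.67 and 3.97 in trametinib hearts, against 1.8, 1.7 and 1.64 in vehicle hearts. Hes1 was also lower (-0.48, adjusted p = 0.0341) but lost its call under the correction (adjusted p = 0.156). Hey1 (0.47), Hey2 (0.28) and Nrarp (-0.09) did not pass. Hes1, Hey1, Hey2 and Nrarp were named after their values were seen. Adam10, the protease that cuts Notch receptors, was higher (0.52 ± 0.07, SE; adjusted p = 0.00102), as was Notch2 (1.02 ± 0.22, SE; adjusted p = 0.00844; 0.60 after the correction, adjusted p = 0.0559). Notch1, at 0.36 (adjusted p = 0.0938), and Notch4, at -0.02 (adjusted p = 0.94), did not pass.

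Most other genes of the RGS family did not pass. Of 15 tested, 2 were higher and 2 lower, beside 21.6% and 22.8% of all tested genes, and the median was 0.05. Rgs10 was lower (-0.90 ± 0.15, SE; adjusted p = 0.00245), and Rgs7bp, which encodes an RGS-binding protein (0.56 ± 0.14, SE; adjusted p = 0.0145), and Rgs6 (0.44 ± 0.12, SE; adjusted p = 0.0218) were higher. With length and GC corrected, Rgs10 stood at -0.33 (adjusted p = 0.187) and Rgs7bp at 0.14 (adjusted p = 0.494), and Rgs6 alone kept its call. Leaving out 1 heart ended the Rgs6 call in 3 of 6 fits. The closest relatives of Rgs5, Rgs4 at 0.18 and Rgs16 at -0.01, did not pass.

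Of 16 tested regulators of the contractile genes, SRF, the myocardin family and related factors, 7 were higher and 2 lower. The shares over all tested genes were 21.6% and 22.8%. The median of the 16 regulators was 0.27. Tead1, a TEA-domain activator, had the smallest p (0.90 ± 0.06, SE; adjusted p = 0.000216). Hopx, a homeodomain protein that restrains SRF, fell (-1.17 ± 0.10, SE; adjusted p = 0.000269), as did Fhl2, an SRF target (-0.42 ± 0.05, SE; adjusted p = 0.00083), although Fhl2 lost its call with length and GC corrected (-0.14, adjusted p = 0.0666). Srf itself measured 3924, 3269 and 3892 in trametinib hearts, against 2667, 2646 and 2853 in vehicle hearts (0.44 ± 0.08, SE; adjusted p = 0.00433). Myocd, which encodes myocardin, measured 1496, 1342 and 1376 in trametinib hearts, against 1090, 945 and 1208 in vehicle hearts (0.38 ± 0.10, SE; adjusted p = 0.0162; 0.24 after the correction, adjusted p = 0.0834). Both were named after their values were seen, and heart muscle cells make both.

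**Figure D5:**
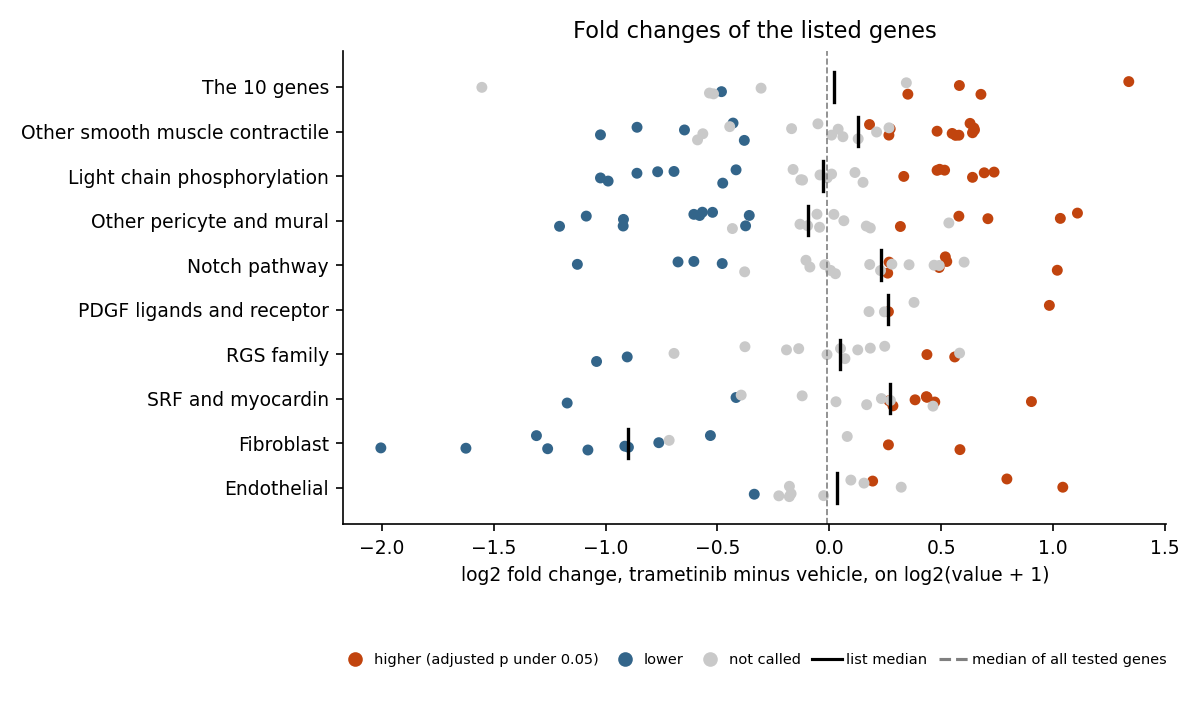
Log2 fold changes, trametinib minus vehicle, of the members and of the tested genes of 9 related lists, coloured by call at an adjusted p of 0.05, with black lines for list medians and a dashed line for the median of all tested genes (-0.01). Points are spread vertically at random. The fibroblast median lies farthest left, at -0.90, and the other medians lie between -0.10 and 0.27.

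Markers of neighbouring cell types moved in some cases. Of 13 fibroblast and myofibroblast markers, 9 were lower, including Gsn (-1.26 ± 0.11, SE), Lum (-1.31 ± 0.11, SE) and Mfap5 (-2.00 ± 0.25, SE). The 2 called higher were Ddr2 and Pdgfra. The 13 markers summed to 59361 to 64235 in trametinib and 87312 to 112912 in vehicle hearts. Gsn was a large part of that sum, with means of 23810 in trametinib and 57204 in vehicle hearts. Dcn, with means of 23400 and 22227, did not pass (adjusted p = 0.506). Acta2 and Tagln are made by myofibroblasts as well, and the part of fibroblasts in their values was not tested. Of 12 endothelial markers 3 were higher, including Flt1 (0.79 ± 0.09, SE) and Kdr (1.04 ± 0.33, SE), and Emcn alone was lower (-0.34 ± 0.08, SE), with sums of 33343 to 36283 in trametinib and 27526 to 32414 in vehicle hearts. With length and GC corrected, 2 were higher and 3 lower (Emcn, Tek and Tie1), and Kdr lost its call (adjusted p = 0.143), as it did in 4 of 6 fits with 1 heart left out. The 4 atrial markers Nppa, Sln, Myl4 and Myl7 were called lower, with sums of 544 to 3724 in trametinib and 6723 to 11661 in vehicle hearts. Trametinib replicate 1 was the highest of its arm for each, and its Myl7 value of 1263 lay above the 1122 of vehicle replicate 3. Myl4 and Myl7 kept their calls in 1 of 6 fits with 1 heart left out and lost them with length and GC corrected (adjusted p = 0.0666 and 0.121). The part of atrial tissue in the members' values was not tested. Of the arterial wall and epicardial markers, Mfap4 was the 1 called of 6 tested, lower at -2.02 ± 0.37 (SE; adjusted p = 0.00362), Upk1b was at 0 in each heart and Upk3b at 0 in all hearts but vehicle replicate 1. The labelled tissue matched its defining genes: 8 heart muscle markers summed to 1924200 to 2019209 in trametinib and 1841852 to 1906893 in vehicle hearts. Myh6 was a large part of that sum, with means of 873685 in trametinib and 632196 in vehicle hearts. Of the 8 markers, 3 were called higher (Ttn, Ryr2 and Myh6) and 5 lower (Myl2, Actc1, Tnni3, Pln and Tnnt2). With length and GC corrected, 2 were higher (Ryr2 and Myh6) and 1 lower (Pln). Tnni3 and Tnnt2 then stood at 0.11 and 0.08, without a call.

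The genes outside the members whose profile over the 6 hearts was most like that of Myh11, by the mean absolute difference of centred log2 values, were Fam78b (0.0953), Nfil3 (0.108), Hecw2 (0.113), Tmprss13 (0.118) and Plekhg1 (0.123). Among members, Rgs5 (0.366) and Mylk (0.379) were nearest to Myh11 and Cnn1 (1.45) farthest. The genes most like Rgs5 were Prkaa2 (0.0214), Ubxn2a (0.0261), Dhx9 (0.0278), Zfp367 (0.0321) and Slc35e1 (0.0357), and the nearest member was Mylk (0.144). Neither set of 5 holds a gene of the mural lists. Those lists are a small part of the genes searched, so no conclusion is drawn from that.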

How the data were processed

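The deposited table gives a normalized signal per gene and heart: read counts scaled by the authors with a single factor for each library. This was read from the values, since 87.5% to 89.4% of those under 50 smallest steps came within 0.05 of a whole number of steps. That share is too low to recover exact reads, so no count model served as the main test. Estimated reads, the values divided by the smallest step, are approximate and entered only the voom alternative. Per the submitters' processing notes, which give no roles, RSEM, DESeq2, SAMtools and Picard 1.64 were among the tools and the build was mm9. The aligner is not given in the sources used here, nor is the annotation. Per the labels' protocols, a stranded mRNA kit was run single-end, and RNA came from either of 2 kits, with no record of which heart had which. The values of 1 more column, which has no labelled sample, stayed out. Numeric symbols were restored in 26 rows from gene identifiers.

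The 13581 genes with a mean of 10 or more entered limma 3.58.1 (R 4.3.3, trend option) on log2(value + 1), a scale that understates changes of low genes. The fit used 3 hearts per arm, and p-values reflect the spread between these hearts. Lengths are means over protein-coding transcripts of GENCODE M21 and covered 99.2% of tested genes, and the correction used lowess with a span of 0.3. Code was tested on simulated libraries. The members and lists were chosen with earlier results of these data known. All members were named with each heart's value, and from each other list up to 3 genes with the smallest p and the relatives of members, except 1 gene that is not reported here. Profiles most like Myh11 and Rgs5 were sought among genes with a mean of at least 100. Alternatives were a pseudocount of 5, no filter, a mean of at least 30, 3 other scalings, voom on estimated reads, the robust option, the length and GC correction, the replicate number as a block and each heart left out. A correction by all annotated transcripts was added after seeing the data.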

Additional observations from a re-analysis of the deposited data

How the results depend on the processing

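Among the members, Rgs5, Myh11 and Smtn kept their direction and their call under all 17 alternatives, with log2 fold changes from 0.50 to 0.71, 1.01 to 1.53 and -0.55 to -0.39. No member changed sign. The number of members higher, 4, went to 2 with no filter on low values and to 2 with the length and GC correction, where Mylk and Notch3 lost their calls, and 3 were higher with lengths over all annotated transcripts, where Notch3 alone lost its call (with no filter more genes enter the adjustment; for the correction the cause was not tested). The number lower, 1, went to 2 with the length and GC correction and to 2 with that correction by all annotated transcripts, through Pdgfrb in each case. With 1 heart left out, 3 to 4 members were higher and 1 to 3 lower, the 3 being Smtn, Tagln and Cnn1 without vehicle replicate 1. Over all genes, 2145 to 2799 were then higher, against 2939 with all hearts, and 2490 to 2856 lower, against 3098. The replicate number as a block changed no call among the members, with 4 higher and 1 lower, and 2885 genes higher and 2877 lower. Hearts share only a number: deviations from the arm means correlated at 0.238, 0.019 and 0.5 for replicates 1, 2 and 3, and not every heart correlated best with its own number. Depth limits Cnn1 most, with 10 estimated reads in its lowest library.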
